A study of Mus musculus with 6 samples.

Results

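Deubiquitylases remove ubiquitin from proteins. The genes described here are the mouse USP genes (ubiquitin-specific proteases) and the OTU genes named Otub or Otud (ovarian tumour domain proteases), taken by symbol from the annotation of the array. The ubiquitin C-terminal hydrolases and Vcpip1 fall outside the name pattern and were left to the wider lists. Of 18563 genes that could be named, 53 had such a symbol, and 43 of these, 34 USP genes and 9 OTU genes, had a probe above background on 3 or more of the 6 arrays and were tested among 14732 genes. The choice used symbols and brightness, not the difference between genotypes.

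Muscle RNA was taken at the age of 6 weeks from 3 mice of each genotype, Rpt3-/- and Rpt3+/+, with 1 CodeLink array per mouse. Rpt3, whose gene is Psmc4, is an ATPase of the 19S regulatory particle of the proteasome. The Rpt3-/- mice carried floxed Rpt3 alleles and Cre under the myosin light chain 1 fast (Mlc1f) promoter, whose activity in adult muscle is limited to fast-twitch fibres. By the study's methods the control mice carried the same Cre transgene and wild-type Rpt3, whereas the labels give both groups 1 strain name. The labels name the tibialis anterior and the study the gastrocnemius. The deletion was thus aimed at fast fibres, and the study holds that Rpt3 in slow fibres might have been spared. It also reports markedly less Rpt3 protein in the soleus and incomplete excision by this Cre. Slow fibres, endothelial cells and macrophages are among the sources it names for the Rpt3 that remained. A whole-muscle array cannot tell fewer cells of a type from less RNA per cell.

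Ubiquitin is attached to proteins as single units or as chains, and chains of the right linkage bring a protein to the proteasome. Deubiquitylases cut these links again, and they can rescue a protein from degradation, trim chains at the proteasome itself or return ubiquitin to the free pool. USP enzymes form the largest family and often act on a chosen set of proteins, whereas OTU enzymes often act on a chosen type of chain. In skeletal muscle the same system removes contractile proteins during atrophy.

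The arrays were checked before the genes were compared. Between 57.0% and 74.5% of probes were above background on an array, control array 2 being the dimmest, and 38 to 42 of the 43 tested genes were above background on each array. The brightest Psmc4 probe had log2 intensities of 10.01, 9.78 and 9.85 in the Rpt3-/- muscles and of 11.16, 10.91 and 11.06 in the Rpt3+/+ muscles, and its second probe, at -0.23 on the log2 scale, was not called. Of the fast muscle genes 10 of 10 were tested, with 1 higher and 2 lower. Of 8 tested macrophage markers 7 were higher, where 12.7% of all tested genes were higher and 6.56% lower (14 were listed and 10 were on the array), and their summed log2 level was 11.72 to 12.07 in Rpt3-/- and 10.56 to 10.63 in Rpt3+/+ muscle. Of the other marker lists, 3 of 8 fibroblast genes were higher, 2 of 4 T and B lymphocyte genes were lower, and 0 of 5 endothelial, 0 of 4 satellite cell and 0 of 2 red blood cell genes were called. The part of these cell types in the changes below was not tested. The labels give the sex as female, yet Ddx3y, Eif2s3y, Kdm5d and Uty, all on the Y chromosome, were above background on all 6 arrays and both Xist probes on only 3 of 6. No comparison below splits the mice by sex.

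Across the family, 4 genes were higher and 4 lower in Rpt3-/- muscle at an adjusted p under 0.05 from limma, a linear model fitted over all 14732 genes. Usp5, Usp14, Usp3 and Usp46 were the higher genes, and Usp25, Otud6b, Otub2 and Usp2 the lower ones. Usp46 was above background on no control array, so it entered only through the group in which it was brighter. It is kept in the shares that follow, but nothing is read from its call. Each share was 9.3% of 43, against 12.7% of all tested genes higher and 6.56% lower, and the called genes together made 18.6% against 19.3%. Requiring probes above background on all 6 arrays left out Usp46 and Otub2. Then 3 of 36 members were higher and 3 lower, against 1694 and 1027 of 12154 genes. The genes of the name pattern were thus called about as often as genes in general. The median log2 fold change was -0.07, against -0.01 for all genes, and 29 of 43 values were below 0, although with median centring of the arrays the median was 0.06 (0.05 for all genes). The changes were small as a rule, with a median size of 0.17 against 0.22 over all genes, and for 20 genes the 95% interval lay wholly within 0.5 of no change on the log2 scale, which was 46.5% of the family and 36.9% of all genes. All 8 called genes were among the 15 members (34.9%, against 36.8% of all genes) whose groups did not overlap.

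**Figure D1:**
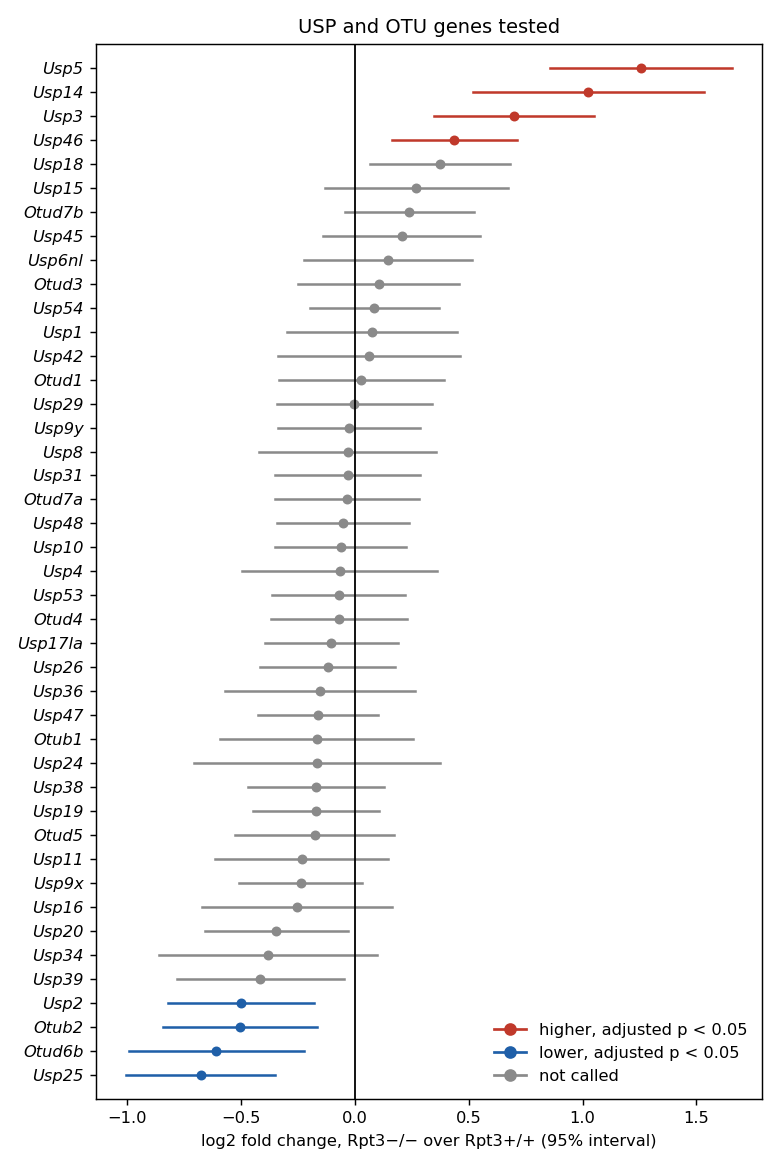
Log2 fold change in Rpt3-/- over Rpt3+/+ muscle for the 43 tested USP and OTU genes, with the 95% interval of the limma fit on the horizontal axis and genes in rows. Usp5 and Usp14 stand at 1.26 and 1.03, and every other value lies between -0.68 and 0.70.

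The promoters of the called genes are shown so that their base composition can be read beside the expression values. RefSeq promoter windows of build GRCm38.p6 were given for 5 of the 8 called genes, and 4 of these genes are printed (Otub2, with several start sites, is not), each as the 250 bases before the gene's start on its own strand. Capitals mark the GC box, letters GGGCGG on either strand, which binds Sp family factors, and in Usp25 the core of the antioxidant response element, letters TGACNNNGC. Usp3 lies at chr9:66593116-66593365 on the minus strand, Usp46 at chr5:74068412-74068661 on the minus strand, Usp2 at chr9:44084670-44084919 on the plus strand and Usp25 at chr16:77013819-77014068 on the plus strand.
Usp3: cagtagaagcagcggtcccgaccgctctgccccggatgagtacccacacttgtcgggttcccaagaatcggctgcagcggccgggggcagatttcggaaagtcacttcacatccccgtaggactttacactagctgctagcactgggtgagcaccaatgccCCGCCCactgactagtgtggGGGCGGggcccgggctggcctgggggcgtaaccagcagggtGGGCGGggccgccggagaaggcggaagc
Usp46: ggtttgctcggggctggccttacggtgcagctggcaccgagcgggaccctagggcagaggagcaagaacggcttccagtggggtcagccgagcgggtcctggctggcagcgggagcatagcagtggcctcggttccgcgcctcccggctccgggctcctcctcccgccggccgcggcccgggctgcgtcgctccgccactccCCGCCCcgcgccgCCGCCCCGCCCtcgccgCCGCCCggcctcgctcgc
Usp2: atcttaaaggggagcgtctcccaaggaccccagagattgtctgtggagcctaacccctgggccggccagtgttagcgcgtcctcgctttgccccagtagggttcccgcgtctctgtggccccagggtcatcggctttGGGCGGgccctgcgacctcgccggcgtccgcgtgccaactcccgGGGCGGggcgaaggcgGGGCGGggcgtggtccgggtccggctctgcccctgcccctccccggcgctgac
Usp25: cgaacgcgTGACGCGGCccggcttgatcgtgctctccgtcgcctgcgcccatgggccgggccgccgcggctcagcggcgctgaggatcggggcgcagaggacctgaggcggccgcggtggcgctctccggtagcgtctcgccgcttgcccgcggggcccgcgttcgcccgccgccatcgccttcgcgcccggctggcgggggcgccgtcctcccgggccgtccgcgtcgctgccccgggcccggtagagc
The printed promoters of Usp3, Usp46 and Usp2 hold GC boxes, and that of Usp25 holds none. Their G and C content was 66.0% for Usp3, 77.6% for Usp46, 71.6% for Usp2 and 80.0% for Usp25. Over the 46 windows of 42 USP and OTU genes in the table, 30 (65.2%) held a GC box, against 32.7% of 32851 promoters of the same length, and their median G and C content was 64.4% against 52.4%. The E-box of the circadian clock, letters CACGTG, stood in 6 windows (13.0% against 6.02%) and was not in the window of Usp2. The antioxidant core stood in 8 windows (17.4% against 10.2%), the cyclic AMP element TGACGTCA in 1 (2.17% against 1.55%), and the heat shock core GAANNTTC (6.69% of all promoters), the interferon element, GAAA and GAAA with 2 bases of any kind between (2.98%), and the MEF2 core, CTA and TAG with 4 bases of any kind between (3.2%), in 0 of 46. Both strands were searched, matches of different motifs were counted separately even where they overlapped, and a match is a description of the letters only.

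Usp5 and Usp14 had the largest changes of the 43 tested genes. They were listed together, as enzymes of free ubiquitin chains and of the proteasome, with earlier results known. Nothing is therefore read from the list. USP5, also called isopeptidase T, takes apart unanchored ubiquitin chains and returns single ubiquitin. Its log2 intensity was 9.31, 9.60 and 9.62 in the Rpt3-/- muscles and 7.92, 8.58 and 8.25 in the Rpt3+/+ muscles. The lowest Rpt3-/- array stood clear of the highest control array. The means were 9.51 ± 0.18 and 8.25 ± 0.33 (SD, n = 3), and the log2 fold change was 1.26 with a standard error of 0.18, a 2.39-fold higher intensity (limma, adjusted p = 0.00112). Usp5 was called in all 20 alternative settings, with log2 fold changes from 0.63 to 1.42.

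USP14 is bound to the 19S particle, where it trims ubiquitin from proteins that dock there. Usp14 had log2 intensities of 9.77, 10.44 and 10.35 in the Rpt3-/- muscles and of 8.71, 9.37 and 9.41 in the Rpt3+/+ muscles. Replicate 1 was the lowest of its group in both genotypes, and the groups did not overlap. The log2 fold change was 1.03 with a standard error of 0.23, or 2.04-fold (limma, adjusted p = 0.0110). Usp14 did not pass without Rpt3-/- array 3 (0.94, limma, adjusted p = 0.0569). Of the other deubiquitylases of the 19S particle, Psmd14 was higher (0.67, limma, adjusted p = 0.0288) and Uchl5 had a log2 fold change of -0.19 and was not called.

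**Figure D2:**
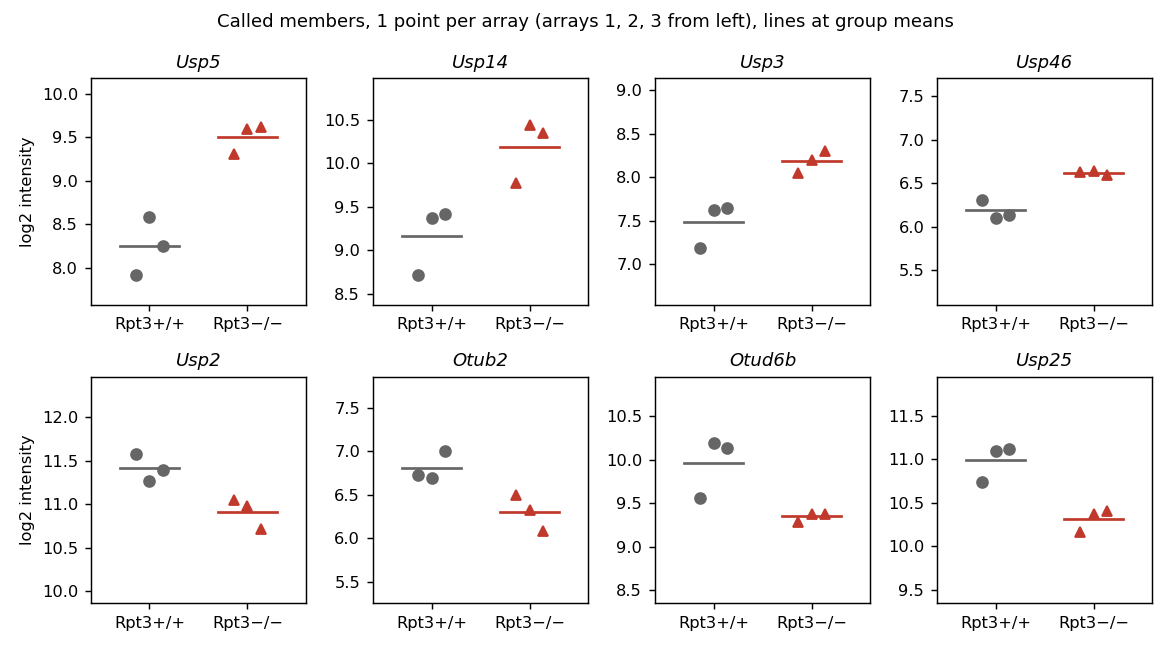
Log2 intensity on each array for the 8 called genes, with Rpt3+/+ arrays as circles, Rpt3-/- arrays as triangles and group means as lines, all panels spanning the same height in log2 units. The groups of each gene do not overlap, and the distance between the means is greatest for Usp5 at 1.26.

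Among the 5 tested enzymes that act on histone ubiquitin and chromatin, 1 was higher and 0 lower, where 12.7% and 6.56% of all tested genes were. USP3 removes ubiquitin from histones H2A and H2B. Usp3 had log2 intensities of 8.05, 8.20 and 8.30 in the Rpt3-/- muscles and of 7.18, 7.62 and 7.65 in the Rpt3+/+ muscles, with control array 1 the lowest. Its log2 fold change was 0.70 with a standard error of 0.16, or 1.62-fold (limma, adjusted p = 0.0116). A second probe for the same RefSeq transcript gave 0.62 and was called too, but 2 dimmer probes designed on other transcript records gave 0.07 and -0.02 and were not. With the mean of the 4 probes the log2 fold change was 0.34 (limma, adjusted p = 0.0884), and Usp3 did not pass without Rpt3-/- array 3 either (0.64, limma, adjusted p = 0.0582). Of the others on this list, Usp11 and Usp36 had log2 fold changes of -0.23 and -0.15, Usp16, which removes ubiquitin from histone H2A before mitosis, had -0.25 and Usp42 had 0.06, and none was called. Of the 10 genes of this list with a probe, Usp7, Usp21, Usp27x, Usp44 and Usp51 did not reach the brightness needed for a test.

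USP1, USP12 and USP46 are active when bound to the WD-repeat protein UAF1, whose gene is Wdr48. Usp46 had log2 intensities of 6.63, 6.64 and 6.60 in the Rpt3-/- muscles and of 6.31, 6.10 and 6.14 in the Rpt3+/+ muscles. It was above background on all 3 Rpt3-/- arrays and on no control array, so it entered the test only through the group in which it was brighter, and nothing is read from its call. The fitted log2 fold change was 0.44 (limma, adjusted p = 0.0317), and the measured fold is a bound, at least 1.08-fold higher, taken against the lowest signal above background on each control array. Usp1 had a log2 fold change of 0.07 and was not called, and Usp12 was above background on no array. Wdr48 itself was lower, at 7.56, 7.54 and 7.64 in the Rpt3-/- muscles and 7.93, 8.05 and 8.07 in the Rpt3+/+ muscles, a log2 fold change of -0.44 (limma, adjusted p = 0.0293).

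Of the 4 tested genes that have been studied in muscle, 2 were lower and 0 higher, where 6.56% and 12.7% of all tested genes were. USP25 has a muscle splice form that binds contractile proteins. Usp25 had log2 intensities of 10.16, 10.37 and 10.40 in the Rpt3-/- muscles and of 10.74, 11.10 and 11.12 in the Rpt3+/+ muscles, and every control array was above every Rpt3-/- array. Its log2 fold change was -0.68 with a standard error of 0.15 (limma, adjusted p = 0.00985). The probe was designed on the gene's RefSeq transcript. Its position on the transcript was not used, so which splice forms it reads is not known here. Usp25 did not pass without Rpt3-/- array 1 (limma, adjusted p = 0.0527) or control array 3 (limma, adjusted p = 0.0634), nor with median centring (-0.42, limma, adjusted p = 0.0852).

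USP2 is made in a daily rhythm in many tissues and has been linked to myogenic differentiation and the circadian clock. Usp2 had log2 intensities of 11.05, 10.98 and 10.71 in the Rpt3-/- muscles and of 11.58, 11.27 and 11.39 in the Rpt3+/+ muscles, which did not overlap. Its log2 fold change was -0.50 with a standard error of 0.14 (limma, adjusted p = 0.0362). The call was kept in 1 of the 6 fits that left out an array, that without control array 2, and was lost with median centring (-0.21, limma, adjusted p = 0.344). No source used here gives the hour at which the muscles were taken.

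Of the other muscle genes of that list, Usp19 and Usp10 were not called and Usp28 was not tested. Usp19, whose enzyme takes part in muscle wasting and in protein quality control at the endoplasmic reticulum, had log2 intensities of 10.96, 10.75 and 10.80 in the Rpt3-/- muscles and of 10.97, 11.08 and 10.97 in the Rpt3+/+ muscles. The groups did not overlap by a narrow margin, and the log2 fold change was -0.17 with a 95% interval of -0.45 to 0.11 (limma, adjusted p = 0.387). Usp10, which is bound by the stress granule protein G3BP1, had -0.06 with an interval of -0.35 to 0.23, and Usp28 was above background on only 1 array.

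Within the OTU genes 2 of 9 were lower and 0 higher, or 22.2% called, near the 19.3% of all tested genes. OTUD6B has been tied to assembly of the proteasome and to protein synthesis in human cells. Otud6b had log2 intensities of 9.28, 9.38 and 9.38 in the Rpt3-/- muscles and of 9.56, 10.19 and 10.13 in the Rpt3+/+ muscles, control array 1 lying close to the Rpt3-/- arrays. The log2 fold change was -0.61 with a standard error of 0.17 (limma, adjusted p = 0.0331). Its second probe had log2 intensities of 6.89, 7.27 and 7.61 against 7.58, 8.97 and 8.62 and a log2 fold change of -1.13 (limma over 24882 probes, adjusted p = 0.0410), and on that probe control array 1 fell within the Rpt3-/- range. Otud6b was called in 1 of the 6 fits that left out an array, that without control array 1.

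Otub2, whose enzyme cuts several chain types and is close in sequence to OTUB1, was dim. Its log2 intensities were 6.50, 6.33 and 6.09 in the Rpt3-/- muscles and 6.73, 6.70 and 7.00 in the Rpt3+/+ muscles, and it was above background on 1 and 2 arrays. The log2 fold change was -0.50 with a standard error of 0.15 (limma, adjusted p = 0.0428), and it was called in 2 of the 6 fits that left out an array, those without control array 1 or 2. When the p-values were adjusted over probes rather than genes, the adjusted p of limma was 0.0514.

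The remaining OTU genes were near 0. Otub1, whose enzyme cuts K48-linked chains and also blocks ubiquitin-conjugating enzymes, had a log2 fold change of -0.17 with an interval of -0.59 to 0.26. Otud7b, also known as Cezanne and selective for K11-linked chains, had 0.24 with an interval of -0.05 to 0.52, and its groups did not overlap. Otud1, Otud3, Otud4, Otud5 and Otud7a lay between -0.18 and 0.10 on their brightest probes.

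None of the 6 large cytosolic enzymes was called, where 19.3% of all tested genes were. On their brightest probes the log2 fold changes ran from -0.38 to -0.03. Usp9x, a deubiquitylase of the X chromosome, had log2 intensities of 11.06, 11.03 and 11.02 in the Rpt3-/- muscles and of 11.18, 11.37 and 11.28 in the Rpt3+/+ muscles. The groups did not overlap, and the log2 fold change was -0.24 (limma, adjusted p = 0.208). A second Usp9x probe had log2 intensities of 9.66 to 10.12 against 9.48 to 10.23, with overlapping groups and a log2 fold change of -0.0054. Usp47, which acts in base excision repair, had -0.16 and non-overlapping groups (limma, adjusted p = 0.395). Usp24, Usp34 and Usp48 had -0.17, -0.38 and -0.05 on their brightest probes. Second probes of Usp34 and Usp48 had 0.41 and -0.24, and neither was called. Usp9y, the Y-linked copy of Usp9x, was above background on all 6 arrays, against the labelled sex of the mice.

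Usp18, whose enzyme removes the ubiquitin-like protein ISG15 and is induced by interferon, had log2 intensities of 7.05, 6.82 and 7.23 in the Rpt3-/- muscles and of 6.65, 6.70 and 6.63 in the Rpt3+/+ muscles. The groups did not overlap, but the log2 fold change of 0.37 was not called (limma, adjusted p = 0.0887). It was above background on all 3 Rpt3-/- arrays and 1 control array. Most of the macrophage markers given above were higher in the same mice, and a link to Usp18 was not tested.

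Usp39, which encodes an inactive member of the family needed in the spliceosome, had the largest change among the USP and OTU genes that were not called, each by its brightest probe. Its log2 intensities were 8.86, 9.06 and 9.03 in the Rpt3-/- muscles and 9.06, 9.65 and 9.48 in the Rpt3+/+ muscles. The highest Rpt3-/- array and the lowest control array met at the same rounded value, and the log2 fold change was -0.41 with an interval of -0.78 to -0.05 (limma, adjusted p = 0.112). Among the alternatives run it was called only when control array 1 was left out (-0.58, limma, adjusted p = 0.00986), when arrays were weighted or when they were centred on Actb. Usp4 and Usp15, a related pair of which USP4 also acts on spliceosome proteins, had -0.07 and 0.27.

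The last groups held no call, where 19.3% of all tested genes were called. Usp8, which deubiquitylates receptors at endosomes, had -0.03, and Usp6nl, which fits the name pattern but encodes a Rab GTPase-activating protein and no deubiquitylase, had 0.14 with 1 spot missing. The 8 other USP genes, among them Usp26 and Usp29, which are best known from the germline, lay between -0.17 and 0.21. The 10 genes not tested were Usp7, Usp12, Usp21, Usp27x, Usp28, Usp32, Usp37, Usp44, Usp50 and Usp51, of which 7 were above background on no array and 3 on 1 array. For these the arrays give no comparison, and a low signal can come from the probe as well as from the gene.

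Several genes were measured by more than 1 probe. Of the 13 members with more than 1 tested probe, 7 had probes of opposite sign (53.8%, against 43.9% of 1957 genes). In 4 the probes differed in call (30.8%, against 23%). Both shares were within about 1 gene of those over all genes. The gap between the probes of a gene was wider, with a median of 0.52 log2 units against 0.28 over the 1957 genes. Usp20 had the widest gap. USP20 stabilises several membrane receptors and metabolic enzymes. Its brightest probe had log2 intensities of 9.13, 9.22 and 8.86 in the Rpt3-/- muscles and 9.53, 9.28 and 9.43 in the Rpt3+/+ muscles, a log2 fold change of -0.34 that was not called (limma, adjusted p = 0.123). Its second probe, designed on the RefSeq transcript, had log2 intensities of 7.44, 7.48 and 7.79 against 6.47, 6.91 and 6.60, a log2 fold change of 0.91 (limma over probes, adjusted p = 0.00455). Both probes separated the groups, in opposite directions, so the direction of Usp20 cannot be given.

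Otud5, whose enzyme restrains interferon signalling, had a pair of probes designed on the same transcript record. The brighter had a log2 fold change of -0.18, and the other had log2 intensities of 8.36, 8.18 and 8.34 in the Rpt3-/- muscles and of 7.62, 7.83 and 7.68 in the Rpt3+/+ muscles, 0.58 higher (limma over probes, adjusted p = 0.0131). The brighter probe of Usp29 gave 0.00. Its dimmer probe, at 6.92, 6.57 and 6.76 against 6.25, 6.39 and 5.99, was above background on 3 Rpt3-/- and 0 control arrays, so it too entered the test only through the group in which it was brighter, and nothing is read from its call. Usp15 had log2 fold changes of 0.27 and -0.46, Usp34 -0.38 and 0.41 and Otud1 0.03 and -0.21, with no probe called. The position of each probe on its transcript was not used here.

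**Figure D3:**
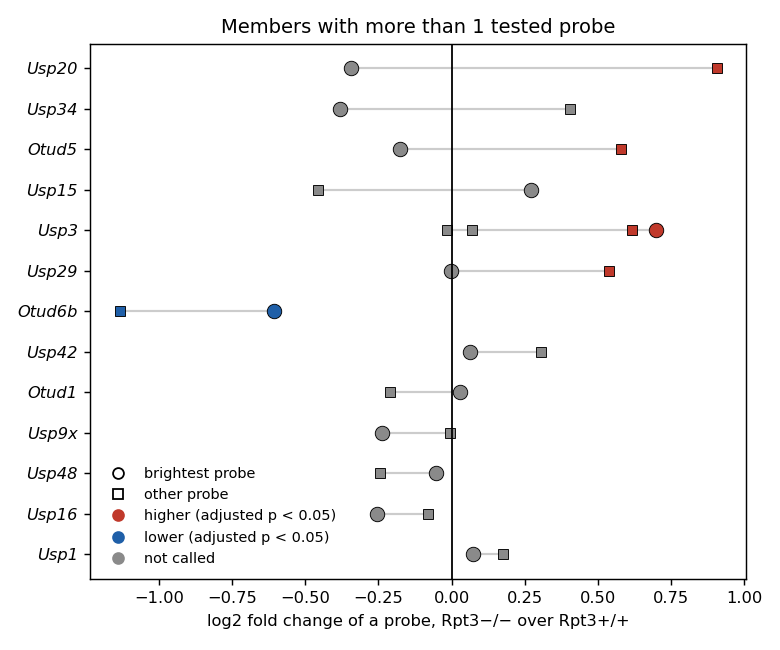
Log2 fold change in Rpt3-/- over Rpt3+/+ muscle of every tested probe for the 13 genes with more than 1, with the brightest probe as a circle and others as squares. The probes of Usp20 stand 1.25 apart, at -0.34 and 0.91.

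The calls also changed when 1 array was left out, which cuts a group to 2 mice. Control array 1 was the array farthest from the other controls for 29 of 43 genes and the lowest control for 26. Leaving out Rpt3-/- array 3 left 1 gene higher and 1 lower, and leaving out Rpt3-/- array 1 or control array 3 left 0 lower. Over all genes the lower calls also fell in these fits, from 967 to 543, 475 and 387. Whether a call was lost through the mouse or the smaller group was not tested. Usp5 passed in 6 of 6 such fits, Usp14 and Usp3 in 5, Usp25 in 4, Otub2 in 2, and Usp2, Otud6b and Usp46 in 1 each. The direction of all 8 genes was the same in each of these fits.

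**Figure D4:**
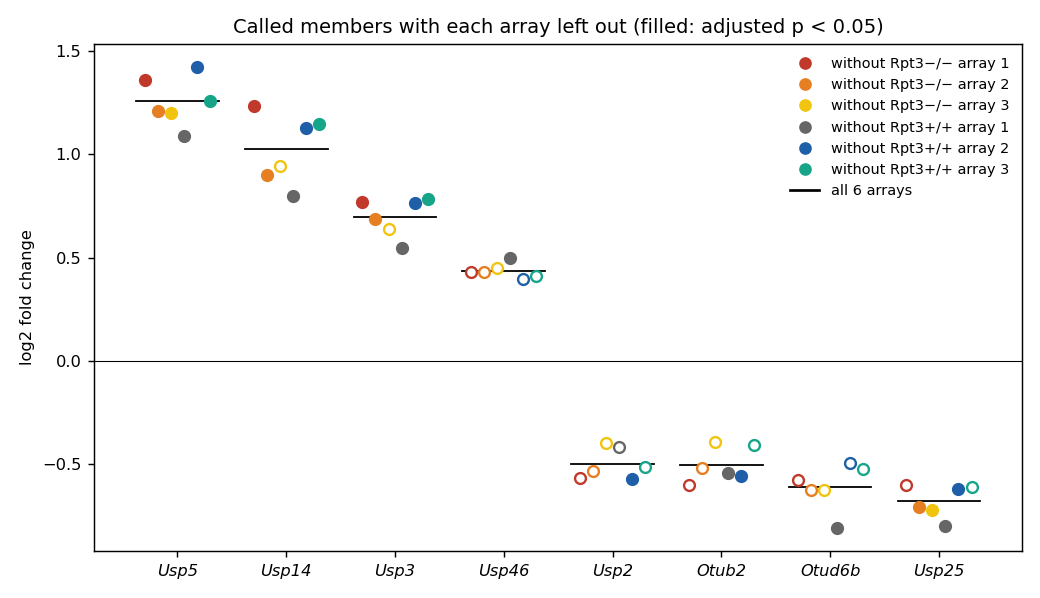
Log2 fold change of the 8 called genes with each of the 6 arrays left out in turn, on a vertical axis in log2 units, with filled points where the adjusted p was under 0.05 and a line at the value from all arrays. All points for Usp5 are filled, and 1 point is filled for Usp46, Usp2 and Otud6b.

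Other deubiquitylases, partners of USP enzymes, ubiquitin genes and ubiquitin-activating enzymes, all outside the name pattern, were taken from 8 lists with 30 tested genes. Of these 10 were higher and 1 was lower, against 12.7% and 6.56% of all tested genes, with a median log2 fold change of 0.22 against -0.01. The largest value was that of Uchl1, a hydrolase best known from neurons, at 12.90, 12.62 and 12.91 in the Rpt3-/- muscles and 7.51, 7.84 and 7.47 in the Rpt3+/+ muscles (log2 fold change 5.20, limma, adjusted p = 7.19e-08). Cyld, whose enzyme cuts K63-linked and linear chains and dampens NF-κB signalling, was 1.26 higher (limma, adjusted p = 0.000446), and Vcpip1, an OTU enzyme that works with the ATPase p97, was 0.87 higher (limma, adjusted p = 0.00551).

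The metalloproteases Cops5 of the COP9 signalosome and Stambp of the endosome were 0.76 and 0.48 higher, and both tested Josephin genes were higher, Josd1 by 0.56 and Josd2 by 0.55. Hgs, which sorts ubiquitylated receptors at endosomes beside USP8, was 0.56 higher, and Rps27a, which encodes ubiquitin fused to a ribosomal protein, was 0.55 higher. The adjusted p of these 6 genes lay between 0.00637 and 0.0298 from limma. None of the 3 tested MINDY genes was called, where 19.3% of all tested genes were. These lists were drawn by lying outside the name pattern, and Cyld and Vcpip1 were listed with the OTU enzymes outside it. Whether the listed genes differ from the USP and OTU genes of the name pattern was not tested.

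**Figure D5:**
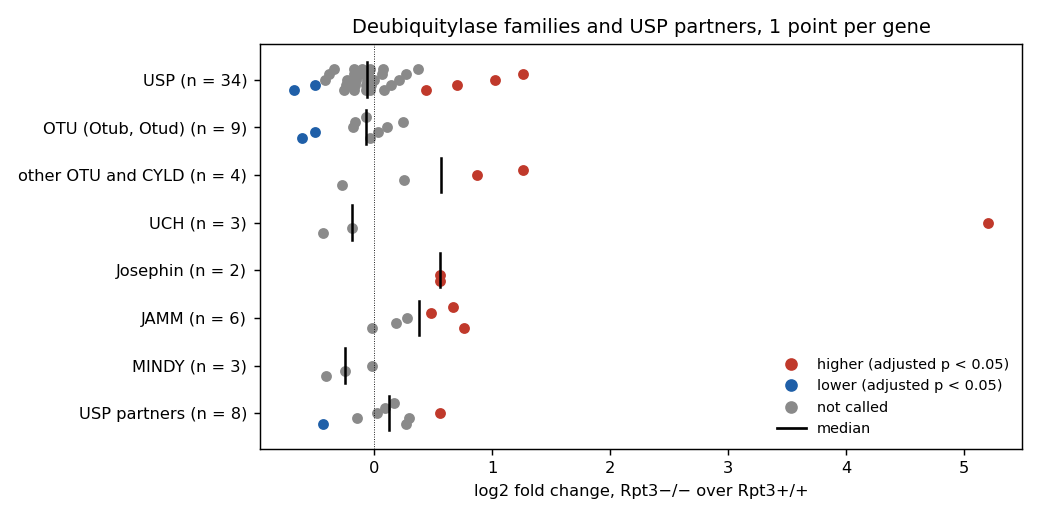
Log2 fold change in Rpt3-/- over Rpt3+/+ muscle by deubiquitylase family and for the partners of USP enzymes, 1 point per tested gene, with vertical bars at medians. The USP and OTU medians lie at -0.06 and -0.07, and Uchl1 stands alone at 5.20.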

How the data were processed

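Total RNA of 6 muscles was hybridised to 1-colour CodeLink arrays. The deposited scanner reports hold, per spot, an intensity, a local background intensity and a quality flag, from the authors' scanner software (CodeLink Expression Analysis, version 5.0.0.31312), not normalized across arrays. A deposited table of normalized intensity served as an alternative. With limma 3.58.1 in R 4.3.3, normexp (offset 50) removed the background, the 1260 control spots were dropped, and arrays were quantile normalized and taken to log2. Genes were named from the platform annotation (21615 probes with 1 symbol, 681 with several and left out) or by RefSeq accession (536). A gene was tested if it had a probe above background on 3 or more arrays, by its brightest such probe, with lmFit and eBayes and Benjamini-Hochberg adjustment over 14732 genes, and was called at an adjusted p under 0.05. Intervals are 95%.

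Groups and replicate numbers came from the labels. Each value comes from 1 mouse, and the number of arrays limits the precision. The genes with all values printed were those called, with the disagreeing probes and the largest uncalled change; other values printed per array were chosen as examples after they were seen. Members and lists were chosen with earlier results of these data known. On simulated intensities for this comparison over 14732 genes, 34 of 50 genes raised by 1 log2 unit and 30 of 50 lowered by as much were called. Of genes raised or lowered by 0.585, 11 and 8 of 50 were called, beside 6 unchanged genes. The estimates were smaller in size than the changes set. Their medians were 0.81 and -0.75 for 1 log2 unit and 0.45 and -0.48 for 0.585, so the printed fold changes can be too small. Python 3.11.15 searched the promoters, of which windows for 33 of the 43 tested genes were found. Some sequences are not reported here.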

Additional observations from a re-analysis of the deposited data

How the results depend on the processing

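Members called higher and lower numbered 4 and 4. They were 4 and 2 with a normexp offset of 16, 3 and 1 with median centring, and 1 and 36 with each array centred on Actb. By the methods' test after Benjamini-Hochberg adjustment they were 2 and 0. The 2 were Usp5 (methods' test, adjusted p = 0.0489) and Usp46, from whose call nothing is read. Usp14 was not among them (methods' test, adjusted p = 0.134). With the replicate block, which lost Otub2 and Usp46, they were 3 and 3. Same-numbered arrays of the groups had deviations correlated at 0.13, -0.44 and 0.10, and differently numbered arrays at -0.48 to 0.47. The labels name no shared litter or day, so the numbers were not taken to pair mice. Over all genes the block gave 1722 higher and 873 lower. Leaving out 1 array gave 1 to 4 higher and 0 to 4 lower. The members' median was 0.0609 with median centring (0.0514 for all genes) and -0.7199 with Actb centring, which was set on median-centred arrays in place of quantile normalization and moved the median of all genes to -0.7171 (Actb was 0.45 higher in Rpt3-/- muscle after quantile normalization). Relative to that shift Usp5, Usp14, Usp3 and Usp46 were 1.34, 1.16, 0.72 and 0.31 higher. Otub2, Otud6b, Usp25 and Usp2 stood at -0.57, -0.48, -0.47 and -0.27 relative to it. Usp14, Usp3 and Usp46 were not called with Actb centring. Over all genes 1870 were higher and 967 lower. The counts were 328 and 10329 with Actb centring, 3008 and 2361 with array weights, 2555 and 602 with median centring, 2502 and 1636 by the methods' test unadjusted, 940 and 427 after its adjustment, and 1081 to 2332 and 387 to 1418 with 1 array left out. Higher genes were 65.9% of calls, against 80.9% with median centring, 3.08% with Actb centring and 56.9% to 73.6% with 1 array left out.

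Of the genes called or named for their probes, Usp3 was at -2e-04 and Usp46 at -0.4088 when centred on Actb, both below 0 only through the shift of all genes. With the mean of probes Otud5 was at 0.2018, Usp20 at 0.2809 and Usp29 at 0.2686, against values at or below 0 on their brightest probes. Usp29, at 0.00 on its brightest probe, was also at 0.0734 with median centring, 0.0131 with cyclic loess, 0.0298 with array weights and between -0.0955 and 0.1309 with 1 array left out, above 0 without Rpt3-/- array 3 or control array 2 (0.0759). With the dimmest probe in place of the brightest, an alternative added after seeing the data, 6 members were higher and 4 lower. Otud5, Usp20 and Usp29 were gained and Usp3 was lost. The dimmer Usp29 probe, which also enters its mean of probes, was above background on no control array, so nothing is read from that call. The authors' value table gave the same 8 called genes. The cause of these differences was not tested beyond what is given.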
